A study of Mus musculus with 24 samples.

Results

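Direct-pathway projection neurons of the striatum are marked by Drd1, Tac1, Pdyn, Eya1 and Sfxn1. These 5 of the 24079 genes in the count table are described here across brain region, RNA fraction and genotype. They were taken from the table by symbol, Drd1 under its older symbol Drd1a. No cut on measured values was used, but earlier results of these data were known when they were chosen. RNA was sequenced from 2 parts of the striatum, its dorsal part (DS) and the nucleus accumbens (Acb), of rpS6P-/- mice and wild-type littermates, males and females. Acb was dissected from a more anterior stretch of the brain than DS, so region and anterior to posterior position cannot be told apart. In rpS6P-/- mice every phosphorylation site of ribosomal protein S6 is an alanine in all cells of the body, and both genotypes came from heterozygous crosses on a mixed C57Bl/6, Sv129 and ICR background. From each lysate, a whole-lysate library held total cytosolic RNA and a heavy polysomal library held RNA carrying several ribosomes, taken from a sucrose gradient. The 8 groups were thus Acb wild-type lysate, Acb rpS6P-/- lysate, Acb wild-type heavy, Acb rpS6P-/- heavy and the same 4 from DS, with 3 libraries each. Each library pooled the tissue of several mice, so no value belongs to a single animal, and the age of these mice is not given in the sources used here.

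Medium spiny neurons of the striatum fall into a direct and an indirect pathway. Direct-pathway neurons carry the dopamine D1 receptor, encoded by Drd1, which raises cyclic AMP, and they release GABA together with peptides cut from 2 precursors: preprotachykinin, encoded by Tac1, gives substance P and neurokinin A, and prodynorphin, encoded by Pdyn, gives the dynorphins that act on kappa opioid receptors. Eya1 encodes a transcriptional co-factor with phosphatase activity, and Sfxn1 encodes a sideroflexin of the inner mitochondrial membrane that carries serine. Indirect-pathway neurons carry the dopamine D2 receptor (Drd2) and release enkephalin (Penk). The question put to the data was how the members are distributed over Acb and DS, whether they sit on heavy polysomes in proportion to their abundance, and whether either changes when rpS6 cannot be phosphorylated.

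Libraries held from 9280589 to 34703044 reads assigned to genes (median 16678553). Every member passed the filter of 15 reads summed over the libraries fitted in each of the 17 comparisons, and the fewest reads of any member in any library was 19. Levels are given in CPM, the reads of a gene scaled to a common library total, with TMM factors computed over all 24 libraries. The 5 cortical excitatory neuron markers, Slc17a7 and Tbr1 among them, summed to between 62.1 and 199 CPM in Acb libraries and between 696 and 932 CPM in DS libraries. The sums of the oligodendrocyte, astrocyte and microglial markers ran from 2200.8 to 5058 CPM, from 654 to 2175 CPM and from 79.9 to 200.4 CPM. No gene of these lists was at 0 throughout a group. The sum of the 4 choroid plexus markers ran from 2.78 to 25.7 CPM in Acb libraries and from 0 to 6.30 CPM in DS libraries, with 1 or 2 of the 4 at 0 throughout 5 of the 8 groups. The 10 genes of all medium spiny neurons, Ppp1r1b (DARPP-32) among them, summed to between 4879 and 8490 CPM, so the labelled tissue carried its defining markers in every library. In bulk tissue, fewer cells of a type and less RNA per cell cannot be told apart.

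On the mouse build GRCm38.p6, Drd1 lies at chr13:54051183-54055658, Tac1 at chr6:7555061-7562978, Pdyn at chr2:129686549-129699938, Eya1 at chr1:14168953-14311035 and Sfxn1 at chr13:54071656-54108346. Drd1 and Sfxn1 are neighbours: 15997 bases separate them, with 0 annotated genes in between. The 250 bases before the start of Drd1 (chr13:54055659-54055908, minus strand), Tac1 (chr6:7554811-7555060, plus strand) and Pdyn (chr2:129699939-129700188, minus strand) are shown, since these are the receptor and the peptide genes whose levels are compared throughout. They are RefSeq sequences, 5′ to 3′, and capitals mark the core of the cyclic AMP response element, TGACG on either strand (CGTCA on the other), the element through which cyclic AMP acts on genes in general.
Drd1: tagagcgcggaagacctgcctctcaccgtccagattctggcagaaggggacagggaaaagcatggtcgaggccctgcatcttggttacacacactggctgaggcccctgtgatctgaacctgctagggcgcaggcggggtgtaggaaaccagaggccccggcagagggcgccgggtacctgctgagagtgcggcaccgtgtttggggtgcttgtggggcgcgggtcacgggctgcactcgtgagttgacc
Tac1: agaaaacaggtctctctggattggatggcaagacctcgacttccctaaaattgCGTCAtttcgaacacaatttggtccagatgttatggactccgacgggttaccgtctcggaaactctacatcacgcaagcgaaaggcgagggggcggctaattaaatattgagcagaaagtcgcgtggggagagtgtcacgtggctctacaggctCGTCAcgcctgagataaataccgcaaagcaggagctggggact
Pdyn: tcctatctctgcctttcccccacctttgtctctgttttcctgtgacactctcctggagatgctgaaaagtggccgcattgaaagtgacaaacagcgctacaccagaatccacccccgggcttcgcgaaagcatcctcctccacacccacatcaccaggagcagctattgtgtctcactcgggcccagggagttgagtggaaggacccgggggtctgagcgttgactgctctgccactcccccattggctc
The Tac1 window held this core at 197 to 193 and at 43 to 39 bases before the start, and the Drd1 and Pdyn windows held it at 0 positions. Of 27025 mouse windows of the same length, 17.8% held the core. The full element TGACGTCA stood in 1.6% of the windows and the TATA box TATAAA in 13%, and these 3 windows held neither. A match of letters is a description of the window.

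Per kilobase of transcript, the scale on which genes can be compared, Tac1 stood highest of the members in each of the 8 groups, from 108 CPM per kb in DS wild-type lysates to 456 in Acb wild-type heavy libraries. In Acb Pdyn followed at 101 to 162 CPM per kb, while in DS it stood at 25.5 to 28.9, below the group means of both Drd1 and Sfxn1. Drd1 lay between 52.0 and 75.3, Sfxn1 between 26.9 and 38.6, and Eya1 between 0.637 and 2.63 CPM per kb. By CPM, Drd1 exceeded 95.6 to 97.7% of all genes across the groups, Tac1 94.0 to 99.3% and Sfxn1 88.8 to 92.0%. Pdyn exceeded 97.5 to 98.7% in Acb and 85.9 to 87.4% in DS, while Eya1 stood near the middle of all genes (50.3 to 63.1%).

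**Figure D1:**
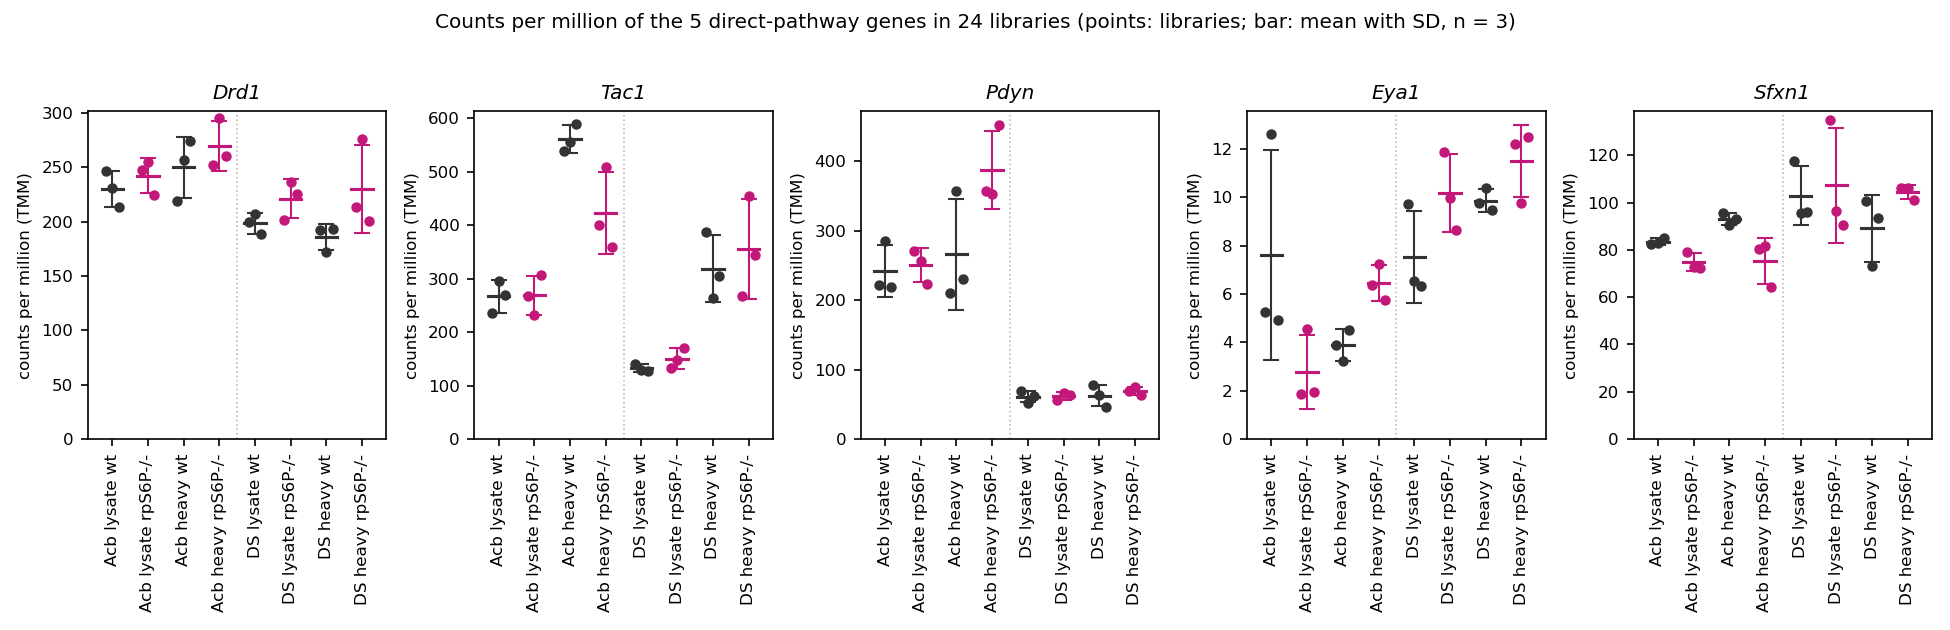
CPM (TMM scaled, linear axis from 0) of each member in the 24 libraries, by region, fraction and genotype, with wild-type in black and rpS6P-/- in magenta. Points are libraries and bars the mean with SD (n = 3). Pdyn fell into a high set of 12 Acb libraries and a low set of 12 DS libraries, Tac1 was higher in heavy polysomes than in lysates, and Drd1 stayed between 173 and 296 CPM.

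Pdyn was the member that differed most between regions. Its level in Acb wild-type lysates was 222, 285 and 218 CPM (mean 242 ± 37.4, SD, n = 3), against 68.7, 52.4 and 61.6 CPM (60.9 ± 8.13) in DS wild-type lysates. In heavy polysomes of wild-type mice it was 210, 358 and 230 CPM in Acb and 77.2, 62.8 and 46.6 CPM in DS. The lowest Acb library thus stood above the highest DS library in both fractions. In rpS6P-/- mice Pdyn was at 271, 257 and 223 CPM in Acb lysates and 56.0, 66.6 and 62.9 CPM in DS lysates. In rpS6P-/- heavy polysomes it was at 358, 352 and 452 CPM in Acb and 69.0, 74.3 and 63.9 CPM in DS. Ordered by mean, all 4 Acb groups came first, and Acb wild-type lysate and DS rpS6P-/- heavy were the only neighbours in the order whose libraries did not overlap.

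Tac1 varied with both region and fraction. In wild-type lysates it was at 235, 296 and 269 CPM in Acb (267 ± 30.3) and 141, 128 and 128 CPM in DS (132 ± 7.65). In wild-type heavy polysomes it was at 539, 556 and 590 CPM in Acb (561 ± 26.2) and at 388, 264 and 305 CPM in DS (319 ± 63.4). The 4 wild-type groups were therefore ranked Acb heavy, DS heavy, Acb lysate and DS lysate. In rpS6P-/- lysates it stood at 268, 233 and 306 CPM in Acb and 133, 148 and 171 CPM in DS. In rpS6P-/- heavy polysomes it stood at 401, 509 and 360 CPM in Acb and 268, 454 and 344 CPM in DS. The 3 Acb wild-type heavy libraries were above all 21 others. Besides that step, only Acb wild-type lysate and DS rpS6P-/- lysate were neighbours in the order without overlap.

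Drd1, the receptor itself, was more even across the groups than Tac1 and Pdyn. Wild-type lysates held 246, 231 and 213 CPM in Acb and 200.002, 207 and 188 CPM in DS. Wild-type heavy polysomes held 219, 257 and 274 CPM in Acb and 192, 173 and 193 CPM in DS. Acb exceeded DS in each fraction without overlap, by far less than for Pdyn. In rpS6P-/- mice the values were 247, 255 and 225 CPM (Acb lysate), 201, 236 and 225 CPM (DS lysate), 252, 296 and 260 CPM (Acb heavy) and 213, 276 and 200.4 CPM (DS heavy). Across all 8 groups, from 269 ± 22.99 CPM in Acb rpS6P-/- heavy to 186 ± 11.6 CPM in DS wild-type heavy, every pair of neighbours in the order overlapped.

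Eya1 was rare. Acb wild-type lysates gave 5.24, 12.6 and 4.93 CPM, the second of these far above the others, and DS wild-type lysates gave 9.73, 6.54 and 6.33 CPM. That second Acb lysate was also the library with the highest sum of the 4 endothelial markers, 13.02 CPM against a lowest of 2.87 CPM. The sum of the 3 tachykinin and opioid receptor genes was highest there too, at 96.2 CPM against a lowest of 36.8 CPM. The part of either in the Eya1 value was not tested. Heavy polysomes of wild-type mice gave 3.91, 3.23 and 4.52 CPM in Acb and 9.76, 10.4 and 9.45 CPM in DS. In rpS6P-/- mice the lysates gave 1.84, 4.55 and 1.96 CPM in Acb and 11.9, 9.99 and 8.65 CPM in DS. The rpS6P-/- heavy libraries gave 6.36, 7.25 and 5.76 CPM in Acb and 12.2, 9.78 and 12.5 CPM in DS. Apart from the single high lysate, every Acb library was below every DS library of the same fraction.

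Sfxn1 ran mildly the other way from Pdyn and Tac1. Wild-type lysates held 82.5, 82.8 and 85.1 CPM in Acb and 117, 95.6 and 95.9 CPM in DS, with no overlap. Wild-type heavy polysomes held 95.6, 90.4 and 92.9 CPM in Acb and 101, 73.2 and 93.4 CPM in DS, which overlapped. In rpS6P-/- mice the lysates held 79.1, 72.9 and 72.4 CPM in Acb and 135, 96.2 and 90.5 CPM in DS. The heavy libraries of these mice held 80.2, 81.4 and 64.2 CPM in Acb and 106, 106 and 101 CPM in DS. Both rpS6P-/- comparisons were free of overlap, with Acb below DS.

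The first comparison asked which members differed between Acb and DS. In wild-type lysates Pdyn was 3.97-fold and Tac1 2.02-fold higher in Acb by the ratio of mean CPM, and these 2 of 5 members passed the test, where 12.7% of the 15557 genes tested did. The log2 fold change was 2.02 ± 0.14 (SE) for Pdyn (edgeR, adjusted p = 4.67e-15) and 1.04 ± 0.12 for Tac1 (adjusted p = 1.74e-08). Drd1 (0.24, 95% interval 0.0068 to 0.48, adjusted p = 0.200) and Sfxn1 (-0.27, adjusted p = 0.218) did not pass. Eya1 differed by 0.04, with an interval from -0.76 to 0.84 that leaves room for a difference of either sign, and by -0.53 without the second Acb lysate.

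Wild-type heavy polysomes gave 3 of 5 members, against 8.15% of genes. Pdyn was 4.27-fold higher in Acb (log2 fold change 2.11 ± 0.22, edgeR adjusted p = 1.35e-05) and Tac1 1.76-fold higher (0.83 ± 0.16, adjusted p = 0.00395). Eya1 was 2.54-fold lower in Acb (-1.33 ± 0.33, adjusted p = 0.0159), and this call was lost without Acb wild-type heavy replicate 1 (adjusted p = 0.057) or 2 (adjusted p = 0.068). Drd1 was 1.35-fold higher (0.44 ± 0.15) and fell short at an adjusted p of 0.0963. It passed in 4 of 14 other settings, among them DESeq2 (0.0456) and a fit of all 24 libraries together (0.0349). The settings that left no library out gave 0.25 to 0.54, with an adjusted p of up to 0.397. With a library left out in turn it did not pass (adjusted p from 0.110 to 0.358). Sfxn1 was at 0.07 (interval -0.28 to 0.42).

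In rpS6P-/- lysates 4 of 5 members passed, against 10.9% of genes. Pdyn was 4.05-fold (log2 2.04 ± 0.12, edgeR adjusted p = 6.81e-16) and Tac1 1.79-fold higher in Acb (0.86 ± 0.12, adjusted p = 6.64e-07). Eya1 was 3.65-fold lower in Acb (-1.86 ± 0.47, adjusted p = 0.00553) and Sfxn1 1.43-fold lower (-0.50 ± 0.14, adjusted p = 0.0175). The calls of Eya1 and Sfxn1 were both lost without DS rpS6P-/- lysate replicate 1 (adjusted p = 0.0705 and 0.359), and that of Sfxn1, whose value then fell to -0.29, also without Acb rpS6P-/- lysate replicate 2 or 3. Drd1 was at 0.16 (interval -0.06 to 0.37).

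In rpS6P-/- heavy polysomes 2 of 5 members passed, against 18.6% of genes. Pdyn reached its widest gap here, 5.61-fold higher in Acb (log2 2.51 ± 0.18, edgeR adjusted p = 9.30e-09). Eya1 was 1.78-fold lower (-0.81 ± 0.27, adjusted p = 0.0411), a call that was lost in 8 of 14 other settings, among them the omission of any of 5 of the 6 libraries. Tac1 was 1.19-fold higher with overlapping libraries (0.27, interval -0.13 to 0.67, adjusted p = 0.358), and with the trend of reads on transcript length removed it passed (0.52, adjusted p = 0.0426). Drd1 was at 0.25 (adjusted p = 0.349). Sfxn1 was at -0.45 (adjusted p = 0.0716) and passed in 3 of 14 other settings, DESeq2 among them (adjusted p = 0.0263). The region difference of Tac1 in heavy polysomes was 0.52 log2 units smaller in rpS6P-/- than in wild-type mice, but the interaction itself did not pass (-0.52 ± 0.26, adjusted p = 0.373) and was -0.22 with the length trend removed.

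**Figure D2:**
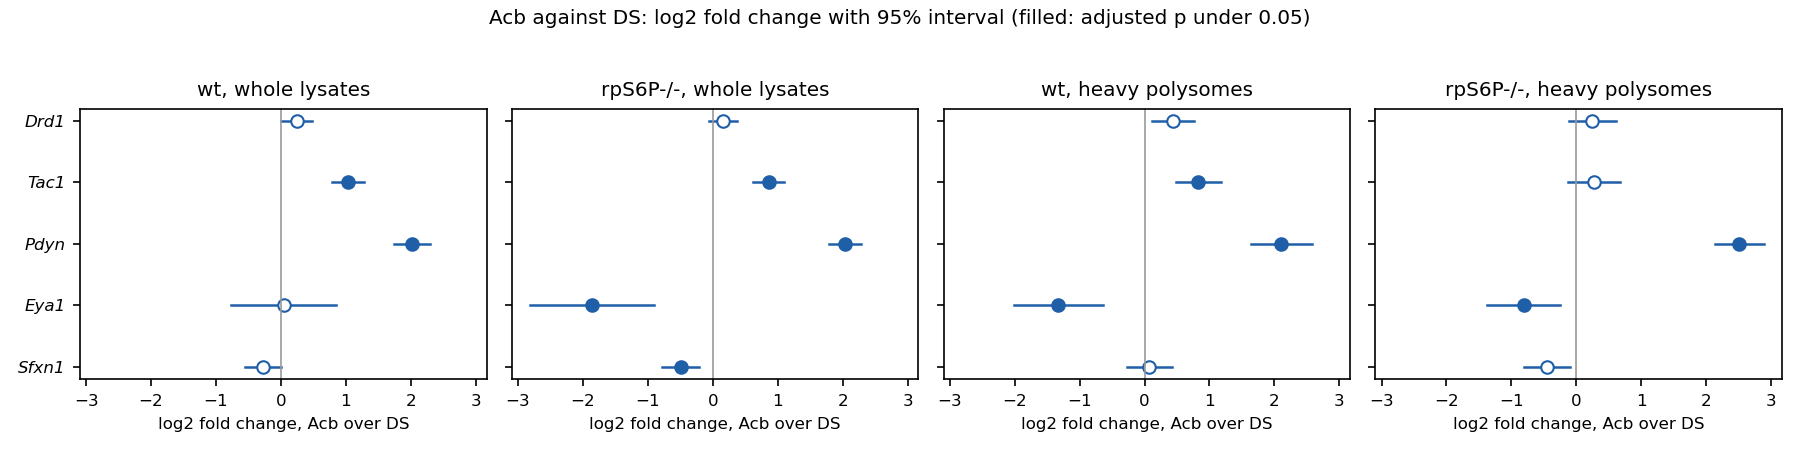
Log2 fold change of Acb over DS for each member with its 95% interval, in wild-type and rpS6P-/- lysates and heavy polysomes, with filled points past an adjusted p of 0.05 (edgeR). Pdyn lay between 2.02 and 2.51 in all 4 panels, Tac1 between 0.27 and 1.04, Drd1 between 0.16 and 0.44, and Eya1 reached -1.86.

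Genes that share the direct pathway with the members were read from a list of 7. For this and the other lists, higher or lower is said of genes called by edgeR. In wild-type lysates Isl1, a LIM-homeodomain factor of direct-pathway neurons (log2 0.91), and Foxp2, a forkhead factor (0.58), were higher in Acb. In wild-type heavy polysomes 3 of 7 were higher, namely Isl1 (1.18), the zinc finger gene Zfp521 (0.94) and Lingo2 (1.25). In rpS6P-/- lysates Isl1 (1.32) and Foxp2 (0.58) were higher, and in rpS6P-/- heavy polysomes Isl1 (0.85), Slc35d3 (0.91) and Foxp2 (0.80). The list's median was 0.57, 0.47, 0.29 and 0.58 in these 4 comparisons, where the median of all genes was 0.0057, 0.03, 0.0031 and 0.01. By sign, 7, 5, 7 and 6 of the 7 were positive, with lowest values of 0.01, -0.44, 0.12 and -0.43. By mean CPM, Ebf1 was at 0.73 of its DS level in both sets of heavy polysomes, and Chrm4 at 0.91 in the wild-type set. Of all genes tested, 12.7%, 8.15%, 10.9% and 18.6% were called in either direction.

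The indirect-pathway list did not move as a block. Penk was higher in Acb in all 4 comparisons (0.86, 0.72, 0.61 and 0.78). Drd2 was lower in Acb in wild-type lysates (-0.43) and in rpS6P-/- heavy polysomes (-1.004), where the adenosine receptor gene Adora2a was also lower (-0.63) and the transcription factor gene Sp9 higher (0.99). Of the 10 genes of all medium spiny neurons, 6 were lower in Acb in wild-type lysates, 3 in wild-type heavy polysomes, 6 in rpS6P-/- lysates and 3 in rpS6P-/- heavy polysomes, where Gnal was higher (0.52). Rasd2, a striatal small GTPase, was lower in all 4 (-0.85, -0.99, -0.69 and -1.07). Beside these, all 5 cortical excitatory markers were lower in Acb in each comparison, with list medians of -4.14, -3.78, -4.08 and -2.63. Of 5 each, 3 oligodendrocyte, 3 astrocyte and 4 microglial markers were higher in Acb in wild-type lysates. The choroid plexus marker Ttr was also higher there (4.36) and in wild-type heavy polysomes (3.11), and Otx2, another choroid plexus marker, was higher in the other 3 comparisons. In rpS6P-/- heavy polysomes Ttr was at -1.75 and did not pass. The part of tissue make-up in the members' region differences was not tested.

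The second comparison set heavy polysomes against the whole lysate of the same group. Tac1 was higher on heavy polysomes in each of the 4 settings, without overlap of libraries, and was the only member to pass in 3 of them. It was 2.11-fold higher in wild-type Acb (log2 1.02 ± 0.14, edgeR adjusted p = 4.59e-06) and 2.41-fold higher in wild-type DS (1.27 ± 0.16, adjusted p = 6.23e-07). In rpS6P-/- DS it was 2.36-fold higher (1.203 ± 0.15, adjusted p = 2.79e-09) and in rpS6P-/- Acb 1.57-fold (0.63 ± 0.16, adjusted p = 0.00858). So 1 of 5 members passed in wild-type Acb, where 25.9% of genes did, 1 in wild-type DS (24.3% of genes), 2 in rpS6P-/- Acb (17.2%) and 1 in rpS6P-/- DS (28.6%).

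Tac1 has the shortest transcript of the members, 1230 bases against 2386 for Pdyn, 2783 for Sfxn1, 3576 for Drd1 and 4366 for Eya1. With the trend of reads on transcript length removed, its excess on heavy polysomes was smaller and still passed in all 4 settings, at 0.63 in wild-type Acb, 0.83 in wild-type DS, 0.44 in rpS6P-/- Acb and 0.68 in rpS6P-/- DS. The rpS6P-/- Acb call was lost without lysate replicate 1 (adjusted p = 0.0576), lysate replicate 2 (0.0892) or heavy replicate 2 (0.0874) of that group. The difference of the fraction effect between wild-type Acb and DS was -0.28 ± 0.20 for Tac1 (adjusted p = 0.9999).

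Pdyn, the other peptide precursor, did not pass in 3 settings. Its log2 difference was 0.09 (interval -0.27 to 0.44) in wild-type Acb, 0.03 (-0.36 to 0.41) in wild-type DS and 0.12 (-0.19 to 0.44) in rpS6P-/- DS. In rpS6P-/- Acb it was 1.55-fold higher on heavy polysomes without overlap (0.61 ± 0.16, edgeR adjusted p = 0.00896). That call was lost with the length trend removed (0.39, adjusted p = 0.0960) and without lysate replicate 3 of that group (adjusted p = 0.0680).

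Drd1 and Sfxn1 were at similar levels in both fractions, and their libraries overlapped between fractions except for Sfxn1 in wild-type Acb. Drd1 differed by 0.07, -0.09, 0.13 and 0.02 log2 units in wild-type Acb, wild-type DS, rpS6P-/- Acb and rpS6P-/- DS, with every interval inside -0.39 to 0.45. Sfxn1 differed by 0.10, -0.21, -0.02 and -0.08 in the same order, with every interval inside -0.55 to 0.40. These 8 values did not pass the test, and the sign of 6 of them turned in some other setting. Drd1 in rpS6P-/- Acb passed with library totals in place of TMM (0.43, adjusted p = 0.0469). Eya1 was 1.95-fold lower on heavy polysomes in wild-type Acb (-1.02 ± 0.41, adjusted p = 0.0702) and 2.32-fold higher in rpS6P-/- Acb (1.203 ± 0.48, adjusted p = 0.0834), both without overlap of libraries and neither past the threshold. The wild-type value was -0.44 without the high lysate, replicate 2, and it passed without lysate replicate 3 (adjusted p = 0.0319). The rpS6P-/- value passed in 3 of 15 other settings, at 1.72 without lysate replicate 2 (adjusted p = 0.0165), with library totals (0.0189) and with all 24 libraries (0.0221). In DS, Eya1 was at 0.38 (adjusted p = 0.478) in wild-type and 0.14 (adjusted p = 0.795) in rpS6P-/- mice.

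**Figure D3:**
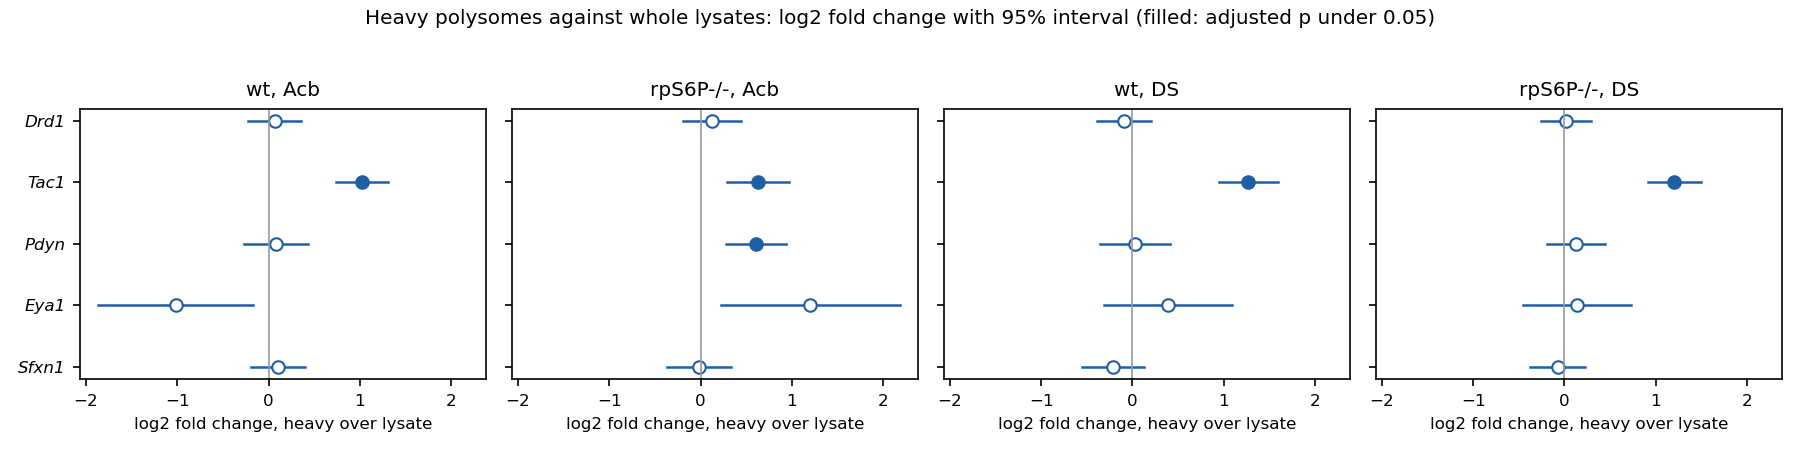
Log2 fold change of heavy polysomes over whole lysates for each member with its 95% interval, in Acb and DS of both genotypes, with filled points past an adjusted p of 0.05 (edgeR). Tac1 was positive in all 4 panels (0.63 to 1.27), Pdyn was filled in rpS6P-/- Acb only (0.61), and Drd1 and Sfxn1 lay near 0.

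Among the other direct-pathway genes, Chrm4, the muscarinic M4 receptor, was lower on heavy polysomes in wild-type Acb (-0.67), Slc35d3 was higher in rpS6P-/- Acb (0.67) and Isl1 higher in rpS6P-/- DS (0.84). Penk, the peptide precursor of the indirect pathway, was higher on heavy polysomes in all 4 settings, by 0.68 in wild-type Acb, 0.86 in wild-type DS, 0.98 in rpS6P-/- Acb and 0.79 in rpS6P-/- DS. Ppp1r1b (0.61 in wild-type Acb) was likewise higher in all 4, while Rgs9, a regulator of G protein signalling, was lower in all 4 (-0.75 in wild-type Acb). Of the 10 genes of all medium spiny neurons, 3 were higher and 2 lower in wild-type Acb, and 3 higher and 5 lower in wild-type DS. In rpS6P-/- mice 2 were higher and 2 lower in Acb, and 3 higher and 3 lower in DS. Beside these, 3 of 5 astrocyte markers were lower on heavy polysomes in wild-type Acb, and of 5 interneuron markers 3 were higher (Pvalb, Sst and Npy) and 2 lower (Chat at -1.33 and Nos1 at -2.26).

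The third comparison asked whether rpS6P-/- mice differed from wild-type littermates. In Acb heavy polysomes, 0 of 5 members passed at an adjusted p under 0.05 with edgeR, where 0% of the 16227 genes tested did, while 3518 genes and 3 members (Tac1, Pdyn and Eya1) had an unadjusted p under 0.05. DESeq2 called 6.72% of genes and 1 member, Pdyn. Pdyn had a mean of 387 ± 56.1 CPM in rpS6P-/- against 266 ± 80.4 CPM in wild-type mice, 1.46-fold higher with 1 wild-type library inside the rpS6P-/- range (log2 0.58 ± 0.20, edgeR adjusted p = 0.131). DESeq2 gave it an adjusted p of 0.0422, and edgeR on all 24 libraries together one of 0.0475. With a library left out in turn the value ran from 0.44 to 0.86 and did not pass.

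Tac1 in the same libraries was at 561 ± 26.2 CPM in wild-type and 423 ± 76.7 CPM in rpS6P-/- mice, 1.33-fold lower without overlap (-0.37 ± 0.16, edgeR adjusted p = 0.186). With the length trend removed that value was -0.12 (adjusted p = 0.731). Eya1 was 1.66-fold higher without overlap (0.77 ± 0.28, adjusted p = 0.145) and Sfxn1 1.24-fold lower without overlap (-0.27 ± 0.16, adjusted p = 0.331). Drd1 was at 0.15 (interval -0.18 to 0.47). These 4 values did not pass, and those of Sfxn1 and Drd1 were also above 0.05 before adjustment. The share of all genes without overlap of libraries was not counted in any comparison. Lack of overlap thus describes the libraries and is not a test.

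In Acb lysates 0 of 5 members passed with edgeR, against 0.0065% of genes (1 gene). At an unadjusted p under 0.05 there were 455 genes and 1 member, Eya1, and DESeq2 called 0 members and 0.0065% of genes. Mean levels were close for Drd1 (230 ± 16.6 CPM in wild-type and 242 ± 15.8 in rpS6P-/- mice), Tac1 (267 ± 30.3 and 269 ± 36.7) and Pdyn (242 ± 37.4 and 250 ± 24.7). Eya1 was 2.73-fold lower in rpS6P-/- mice without overlap (-1.46 ± 0.57, edgeR adjusted p = 0.9996), and at -0.88 without the high wild-type lysate, replicate 2. Sfxn1 was 1.12-fold lower without overlap (-0.16, adjusted p = 0.9996), and Drd1 was at 0.07 (interval -0.18 to 0.31).

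In DS lysates 0 of 5 members passed with edgeR, against 0.122% of genes (19 genes). At an unadjusted p under 0.05 there were 1415 genes and 0 members, and DESeq2 called 0 members and 0.609% of genes. All 5 members overlapped between genotypes. Drd1 was at 0.14 (interval -0.07 to 0.34), Tac1 at 0.17 (-0.06 to 0.39) and Eya1 at 0.41 (-0.24 to 1.06). In DS heavy polysomes 0 of 5 members passed, against 0.044% of genes (7 genes). At an unadjusted p under 0.05 there were 1021 genes and 0 members, and DESeq2 called 0 members and 0.107% of genes. Drd1 was 1.24-fold (0.32 ± 0.17, edgeR adjusted p = 0.789) and Sfxn1 1.17-fold higher (0.24, adjusted p = 0.890) in rpS6P-/- mice, each without overlap. Tac1, at 319 ± 63.4 and 356 ± 93.6 CPM, and Pdyn, at 62.2 ± 15.3 and 69.1 ± 5.18 CPM, overlapped. Eya1 was at 0.23 (-0.39 to 0.85). Of the 64 genes of the other lists, 0 were called by edgeR in each of the 4 genotype comparisons. At an unadjusted p under 0.05 there were 5 in Acb lysates, 9 in Acb heavy polysomes, 6 in DS lysates and 6 in DS heavy polysomes, and DESeq2 called 0, 5, 1 and 0. In Acb heavy polysomes those 5 were 3 oligodendrocyte markers and 2 genes of all medium spiny neurons, whose part in the values of the members was not tested, and 0 of the 7 other direct-pathway genes had an unadjusted p under 0.05 there.

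**Figure D4:**
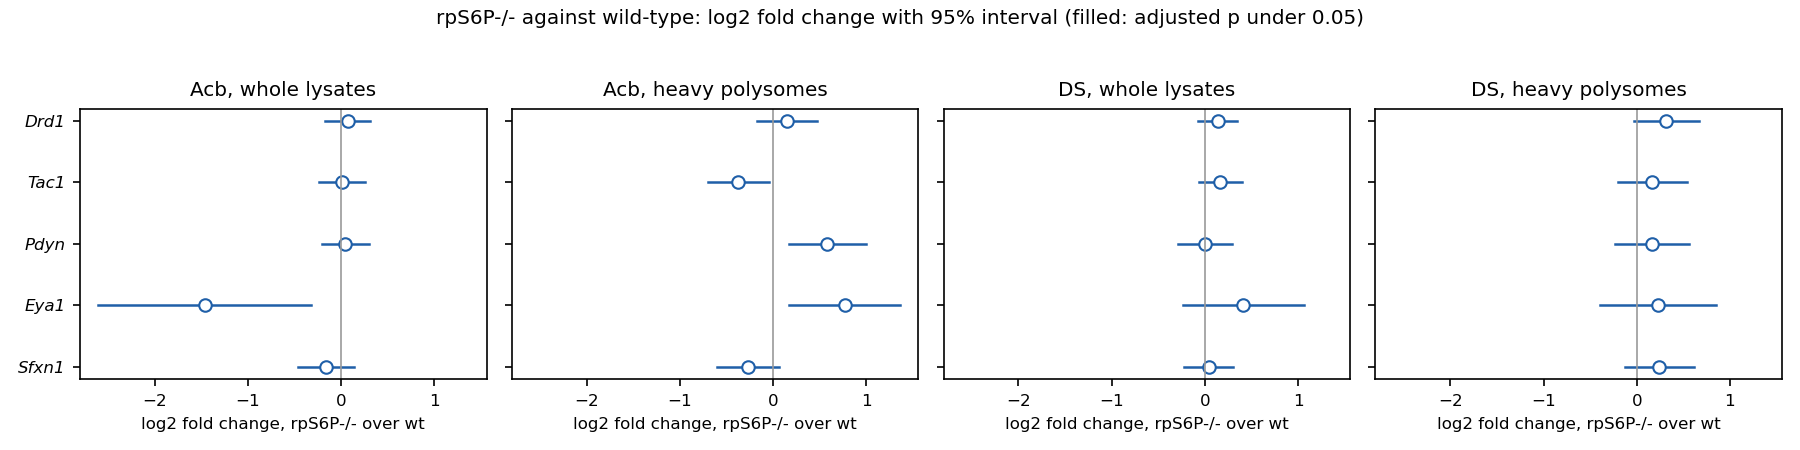
Log2 fold change of rpS6P-/- over wild-type mice for each member with its 95% interval, in lysates and heavy polysomes of Acb and DS, with an open point wherever the adjusted p was above 0.05 (edgeR). All 20 points were open, and those farthest from 0 were Eya1 in Acb lysates (-1.46) and Eya1 (0.77) and Pdyn (0.58) in Acb heavy polysomes.

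Whether the genotype effect itself differed between fractions or regions was tested by interaction terms. In Acb the difference of the genotype effect between heavy polysomes and lysates was 2.23 ± 0.64 for Eya1 (edgeR adjusted p = 0.238), and 1.65 without the high wild-type lysate, replicate 2. It was 0.53 ± 0.24 for Pdyn (adjusted p = 0.378), -0.38 ± 0.21 for Tac1 (adjusted p = 0.470) and -0.11 for Sfxn1 (adjusted p = 0.899). So 0 of 5 members passed, against 0% of genes by edgeR, with 1992 genes and 2 members (Eya1 and Pdyn) at an unadjusted p under 0.05 and 0 genes by DESeq2. With the replicate number as a block this term called 106 genes (0.635%) and still 0 members. In DS the same term gave 0 members and 0% of genes (811 genes and 0 members at an unadjusted p under 0.05, 0 genes by DESeq2, and 6 with the block).

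Between regions, the genotype effect in heavy polysomes was lower in Acb by 0.52 for Tac1 as given above, by 0.50 ± 0.23 for Sfxn1 (-0.50, edgeR adjusted p = 0.330) and by 0.16 for Drd1 (-0.16, adjusted p = 0.824). It was higher in Acb for Pdyn (0.43 ± 0.28, adjusted p = 0.514) and Eya1 (0.55 ± 0.40, adjusted p = 0.572). These were 0 of 5 members against 0.00592% of genes (1 gene). At an unadjusted p under 0.05 there were 2334 genes and 1 member, Sfxn1, and DESeq2 called 1.4% of genes and 0 members. In lysates 0 of 5 passed against 0.00611% of genes (1 gene, with 837 genes and 1 member, Eya1, at an unadjusted p under 0.05, and 0 genes by DESeq2). Eya1 was at -1.88 ± 0.63 there (edgeR adjusted p = 0.953), and at -1.32 without the high Acb wild-type lysate, replicate 2. The fraction effect of wild-type mice did not differ between regions for any member past the threshold (0% of genes, with 767 genes and 1 member, Eya1, at an unadjusted p under 0.05, and 1 gene by DESeq2), with Eya1 at -1.43 ± 0.54 (edgeR adjusted p = 0.9999) and at -0.86 without that lysate.

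Ratios of reads between genes of 1 library do not depend on how libraries are scaled. Reads of Drd1 per read of Drd2 numbered 3.11 ± 0.48 in Acb wild-type lysates (range 2.60 to 3.53) and 1.92 ± 0.26 in DS wild-type lysates (1.69 to 2.21), which did not overlap. In rpS6P-/- heavy polysomes the ratio was 4.89 ± 0.54 in Acb and 2.08 ± 0.50 in DS, again without overlap. The wild-type heavy (3.73 ± 1.18 and 2.16 ± 0.33) and rpS6P-/- lysate ratios (3.26 ± 1.02 and 2.22 ± 0.28) overlapped between regions. The dopamine receptor pair was thus tilted toward Drd1 in the Acb means of each setting.

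Reads of Pdyn per read of Tac1 set the dynorphin precursor against the substance P precursor. The ratio was 0.91 ± 0.083 in Acb wild-type lysates and 0.46 ± 0.044 in DS wild-type lysates. On heavy polysomes of wild-type mice it was 0.47 ± 0.15 in Acb and 0.20 ± 0.043 in DS. In rpS6P-/- Acb it was 0.95 in both fractions (± 0.20 in lysates and ± 0.29 on heavy polysomes), and the heavy libraries of the genotypes did not overlap there (0.389 to 0.644 in wild-type and 0.693 to 1.26 in rpS6P-/- mice). In rpS6P-/- DS it was 0.41 ± 0.043 in lysates and 0.20 ± 0.049 on heavy polysomes. No test was run on these ratios. With edgeR, Pdyn (adjusted p = 0.131) and Tac1 (0.186) did not pass for genotype in Acb heavy polysomes, where DESeq2 called Pdyn. The Acb term of genotype and fraction did not pass for either (edgeR adjusted p = 0.378 and 0.470). Ratios keep the trend of reads on transcript length, and with it removed Tac1 was at -0.12 for genotype in Acb heavy polysomes. Reads of Tac1 per read of Penk had group means from 0.244 to 0.372, with overlap between the regions in each fraction and genotype but wild-type lysates, where the 3 Acb libraries (0.254 to 0.299) lay above the 3 DS libraries (0.236 to 0.251).

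**Figure D5:**
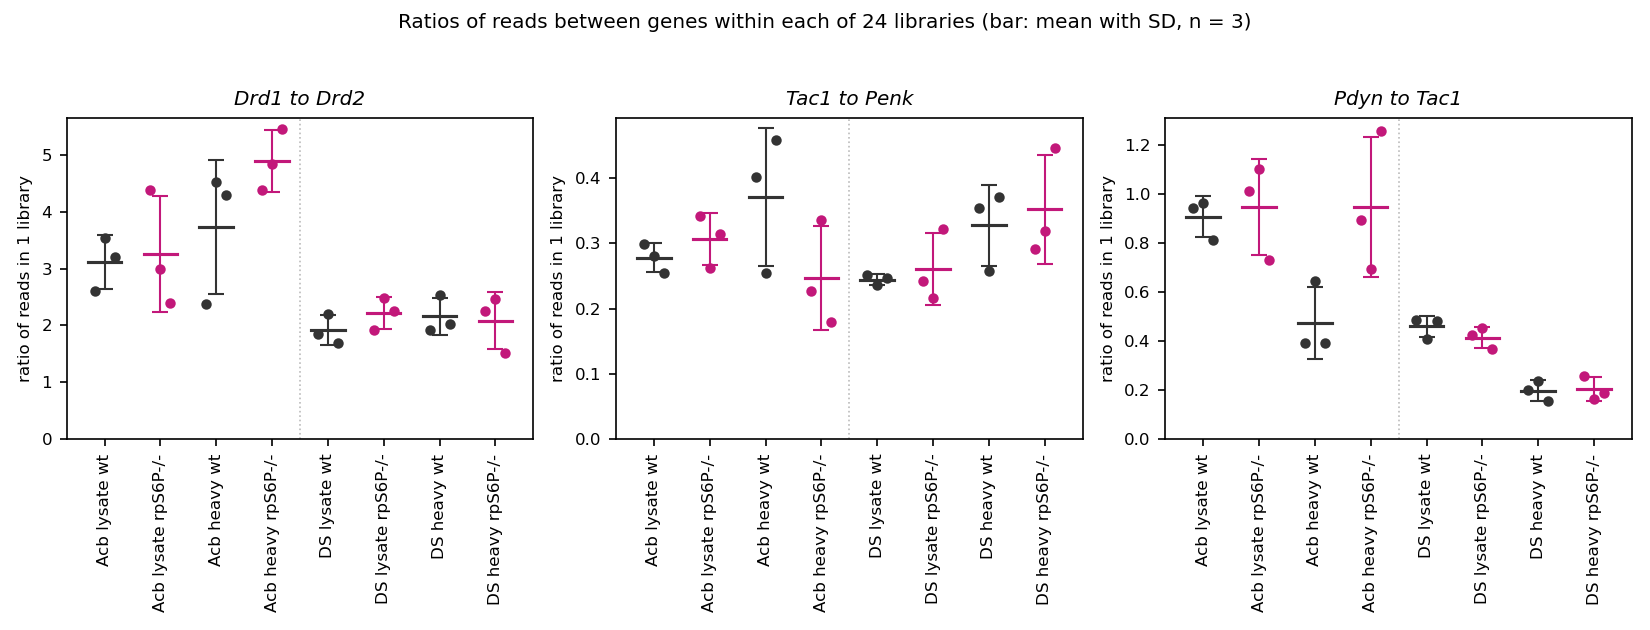
Reads of Drd1 per read of Drd2, of Tac1 per read of Penk and of Pdyn per read of Tac1 within each of the 24 libraries, on linear axes from 0, with wild-type in black and rpS6P-/- in magenta. Bars are the mean with SD (n = 3). Pdyn to Tac1 fell from 0.91 to 0.47 between lysates and heavy polysomes of wild-type Acb and stood at 0.95 in both fractions of rpS6P-/- Acb. The ratios were not tested between fractions or genotypes.

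Across the 24 libraries the members did not follow a common pattern. The correlation of log2 CPM was 0.71 between Drd1 and Pdyn, 0.58 between Tac1 and Pdyn, 0.51 between Drd1 and Tac1 and 0.50 between Eya1 and Sfxn1. It was -0.65 between Pdyn and Sfxn1 and -0.61 between Pdyn and Eya1. These values describe 24 libraries that fall into region and fraction groups, so they mostly restate the group differences, and libraries of 1 lysate share their source. Among 11979 genes with at least 50 reads on average, those most like Pdyn were Lrrn3 (r = 0.98), Sparc (0.98) and Peg10 (0.97). Those most like Tac1 were Nsg2 (0.96), Cspg5 (0.96) and Nsg1 (0.95). Drd1 had B3galt5 (0.86) and Tmem33 (0.82) among its most alike genes and Sfxn1 had Ldlrad4 (0.79) and Mapk6 (0.78). For Eya1 they were C030013G03Rik (0.82), Vip (0.81) and Mapk8 (0.79).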

How the data were processed

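Poly-A RNA of heavy polysomal fractions and whole lysates was sequenced single-end in 24 libraries, 3 for each of 8 groups. The authors aligned reads with TopHat2 2.0.13 and Bowtie2 2.2.3 to the mm10 mouse genome, discarded alignments with many mismatches, and counted them per gene with HTSeq 0.6.1p1 on the strand the kit marks. They repeated sequencing runs because of bacterial reads. The deposited values are raw counts per gene, 24079 genes by 24 libraries.

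From these counts, edgeR 4.0.16 (R 4.3.3) was run in each of 17 comparisons, with TMM scaling, genes of at least 15 reads summed over the libraries fitted, quasi-likelihood F tests and adjustment over all genes tested by the Benjamini-Hochberg method (threshold 0.05). Each fit held only the groups compared and no replicate block, so heavy and lysate libraries of the same number were not paired in the main fits. Intervals are 95%. The members and gene lists were chosen with earlier results of these data known. The genes named were the members, the genes called in each list and the 3 genes most like each member, but some called genes are given as counts only, and some genes are not reported here. Likeness used log2 CPM with a prior count of 2. Alternatives were DESeq2 1.42.0, its size factors, other filters on low counts, a loess trend (span 0.5) on GENCODE transcript length removed (21208 genes with a length), all 24 libraries in 1 fit, the replicate number as a block, each library left out, and library totals without TMM, the last added after the data were seen. The tests were run on simulated counts with changes of 1.5 log2 units planted in 200 genes, which does not show how often smaller changes are found. Of the members, 4 had a RefSeq promoter and 3 windows are shown.

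The short RNA Bc1 took 15.2 to 26.1% of lysate reads and 0.897 to 3.85% of heavy polysomal reads, which raises every other gene's share in heavy libraries. Without TMM the median of all genes shifted by 0.19 to 0.31 log2 units between fractions. Heavy and lysate libraries of the same number were taken to share lysates, since the study kept part of each lysate as input and the labels number them alike. After group means were removed, their correlations over genes ran from -0.0376 to 0.0743, with 0 of 12 over 0.1, and 12 of 24 libraries correlated best with their own number. The study calls the 3 libraries of a group biological replicates of pooled mice. Each p-value sets a group difference against the spread between such libraries, estimated with information from all genes of the fit.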

Additional observations from a re-analysis of the deposited data

How the results depend on the processing

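Of 66 named values, 1022 alternatives were computed, of which 960 kept direction and side of the threshold, 20 lost the call, 15 gained one and 27 turned sign. The 16 called values kept their direction in 229 alternatives and kept the call in 209. A further 19 values are not given singly in the text. Of these, 12 changed sign somewhere, and the largest size among those 12 was 0.17. None of the 19 was called in any alternative. Counts of members called kept within 1.5 times in 257 of 275 alternatives. In the genotype and interaction comparisons the main count was 0 and the main fit called few or no genes. Those counts had little room to move.

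The count moved in rpS6P-/- heavy polysomes between regions, from 2 to 4 with the length trend removed and to 1 with the replicate block or library totals, with 1 to 2 when each library was left out. It ran from 2 to 4 (main 4) in rpS6P-/- lysates and from 1 to 2 (main 1) in wild-type Acb fractions when a library was left out. In rpS6P-/- Acb fractions (main 2) it was 1 with the length trend removed, 1 with the block and the trend, 4 with library totals, and 1 to 2 with a library left out. For genotype in Acb heavy polysomes (main 0) it was 1 with DESeq2 and 1 with all 24 libraries.

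Sign changes, all of values not called, were these. Eya1 between regions in wild-type lysates: -0.073 with the block and -0.53 to 0.26 with a library left out. Sfxn1 between regions in wild-type heavy polysomes: -0.093 with the length trend removed and -0.051 to 0.17 with a library left out. Between fractions of wild-type Acb, Pdyn was -0.11 with the trend removed, -0.14 with block and trend, and -0.19 to 0.23 with a library left out, Sfxn1 -0.025 with the trend removed and -0.024 with block and trend, and Drd1 -0.0027 to 0.15 with a library left out. In wild-type DS, Pdyn was -0.083, -0.11 and -0.17 to 0.20 in the same order, and Drd1 0.096 with library totals. In rpS6P-/- Acb, Sfxn1 was 0.29 with library totals, 0.0087 with all 24 libraries and -0.075 to 0.073 with a library left out. In rpS6P-/- DS, Pdyn was -0.036 with the trend removed and -0.0348 with block and trend, Sfxn1 0.19 with library totals and -0.16 to 0.15 with a library left out, and Drd1 -0.13 to 0.11.

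Genes called over the whole table went for genotype in Acb heavy polysomes from 0 to 1090 with DESeq2, 813 with all 24 libraries and 98 with the block, and for the region term of genotype in heavy polysomes, from 1 to 479 with the block. Other genotype comparisons ran from 0 to 5 (Acb lysates, main 1), 0 to 95 (DS lysates, main 19) and 0 to 37 (DS heavy polysomes, main 7), and the fraction terms from 0 to 127 in Acb and 0 to 12 in DS. Region in wild-type heavy polysomes ran from 663 to 2247 (main 1316), in rpS6P-/- lysates down to 1049 (main 1693), and fraction in rpS6P-/- Acb from 1720 to 4215 (main 2704) and in rpS6P-/- DS from 3196 to 5067 (main 4557).

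The genotypes are separate mice, and whether libraries of the 2 regions with the same number share mice is not given in the sources used here. The correlations of their deviations ran from -0.255 to 0.217 (1 over 0.1, 5 of 24 libraries best with their own number) and from -0.294 to 0.319 (2 over 0.1, 9 of 24). Between regions the replicate block added the call of Drd1 in wild-type heavy polysomes (adjusted p = 0.0161) and lost that of Eya1 in rpS6P-/- heavy polysomes (-0.81, adjusted p = 0.0694). The 3 libraries a group limit all intervals, and Eya1 had as few as 19 reads in a library. The cause of these changes was not tested.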

Other observations

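The enzymes that cut and trim peptide precursors were read from a list of 5, since Tac1 and Pdyn products pass through them. Between regions, Cpe, a carboxypeptidase, was higher in Acb in wild-type lysates (log2 0.61), rpS6P-/- lysates (0.39) and rpS6P-/- heavy polysomes (0.60), while Pcsk2, a prohormone convertase, was lower in both sets of lysates (-0.37 and -0.32). Pam, which amidates peptides, was higher in Acb in rpS6P-/- heavy polysomes (0.71). Scg5, the chaperone of Pcsk2, was higher on heavy polysomes than in lysates in wild-type Acb (0.81), wild-type DS (0.80), rpS6P-/- Acb (0.89) and rpS6P-/- DS (0.89). Cpe was also higher there in wild-type DS (0.38), rpS6P-/- Acb (0.63) and rpS6P-/- DS (0.40). Pcsk2 was lower on heavy polysomes in wild-type Acb (-0.55) and rpS6P-/- DS (-0.41), and Pcsk1, another convertase, in rpS6P-/- DS (-0.87). Of 3 tachykinin and opioid receptors, Tacr3, which prefers neurokinin B, a peptide of another precursor, was higher in Acb in wild-type lysates (1.66), wild-type heavy polysomes (2.45) and rpS6P-/- heavy polysomes (2.03). Oprk1, the kappa opioid receptor, was higher in Acb in wild-type lysates (0.67), and Tacr1, the substance P receptor, in rpS6P-/- heavy polysomes (0.78).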
